A study of Sus scrofa with 20 samples.

Results

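The mRNA abundance of 9 genes of iron uptake, storage and export was followed in peripheral blood mononuclear cells (PBMC) of weaned German Landrace piglets fed diets with low, medium or high mineral content. The genes were TFRC, SLC11A2, SLC11A1, FTH1, FTL, SLC40A1, HMOX1, ACO1 and IREB2, taken by name from the annotation of the array as 9 of 13664 named genes. Together they had 31 of the 47845 probe sets. A probe set was kept where its value exceeded the array median on 80% of the arrays or more, as 20 of the 31 did, and each of the 9 genes had at least 1 kept probe set. The kept probe set of highest mean over all arrays stood for its gene.

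The animals were 6 piglets on the low mineral diet (L, 3 females and 3 males), 7 on the medium diet (M, 4 females and 3 males), which held the recommended amounts, and 7 on the high mineral diet (H, 3 females and 4 males). All received wheat, barley and soybean feeds that differed in calcium and phosphorus, were housed singly with free access to feed and water, and were bled at 63 days of age. According to the paper, H piglets ate and grew less in the later weeks, had lower serum zinc and showed parakeratosis. A difference between H and another diet therefore cannot be told apart from these. The males were castrated, and the piglets came from several litters, which the sample labels do not give. Each animal had 1 array, so that the spread below is that between animals.

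Iron reaches most cells bound to transferrin, through the transferrin receptor, and leaves the endosome through a divalent metal transporter. It is stored inside ferritin, a shell built of heavy and light chains, and leaves the cell through ferroportin. Macrophages also gain iron from haem, which haem oxygenase opens. When iron is scarce, the iron regulatory proteins bind hairpins in the messages of some of these genes. This keeps the receptor message from decay and holds back the translation of ferritin. Lymphocytes take up iron mainly when they divide, while monocytes and macrophages store and recycle it.

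The values are the authors' RMA values on a log2 scale, and a difference between diets is a log2 difference. Array medians ranged from 4.29 to 4.46, and arrays correlated at 0.958 to 0.985 with each other. The median of the 69 background control probe sets ran from 2.60 to 3.28. The arrays of animals L 6, M 16 and M 19 held the highest 3 of these levels. All 5 T cell markers, all 4 B cell markers and all 5 monocyte markers on the array were kept, as PBMC should show. Of the NK and cytotoxic markers on the array, 4 of 6 were kept, and of the platelet markers 5 of 6. All 7 neutrophil markers and all 7 erythroid markers on the array were kept too, although the gradient should remove most granulocytes and red cells.

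None of the 9 iron genes was called between any pair of diets, where a call in limma needs both a Storey q under 0.21 over all kept probe sets and an unadjusted p under 0.01. The paper, at the same p and q limits, lists HMOX1 among the transcripts that differed between L and H. Its variance analysis included litter and followed another presence filter, and why the outcomes differ was not tested. In the limma fit made here, 0.0214% of all 9346 measured genes were called between H and L, 0% between M and L, and 0.0428% between H and M. These shares were unstable: between H and L 6 probe sets were called with all arrays, 312 without L 13, 125 without H 18, 943 with array weights and 868 without the 3 arrays of highest background. At an unadjusted p under 0.05 alone, 1 of the 9 genes (HMOX1) passed between H and L, beside 9.17% of all genes. Between M and L 0 of the 9 passed, beside 1.67%, and between H and M 2 of the 9 (SLC40A1 and HMOX1) passed, beside 7.18%. The median of the 9 log2 differences was 0.05 for H minus L (-0.02 over all genes), -0.03 for M minus L (-0.01) and 0.06 for H minus M (-0.01). Above 0 were 5 of the 9 genes for H minus L (45.1% of all genes), 4 for M minus L (46.6%) and 7 for H minus M (48.2%). No iron gene separated any 2 diets without overlap, and over all genes 0.257% did so between H and L, 0% between M and L and 0.0642% between H and M. The comparisons with L share the L animals and those with H the H animals.

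**Figure D1:**
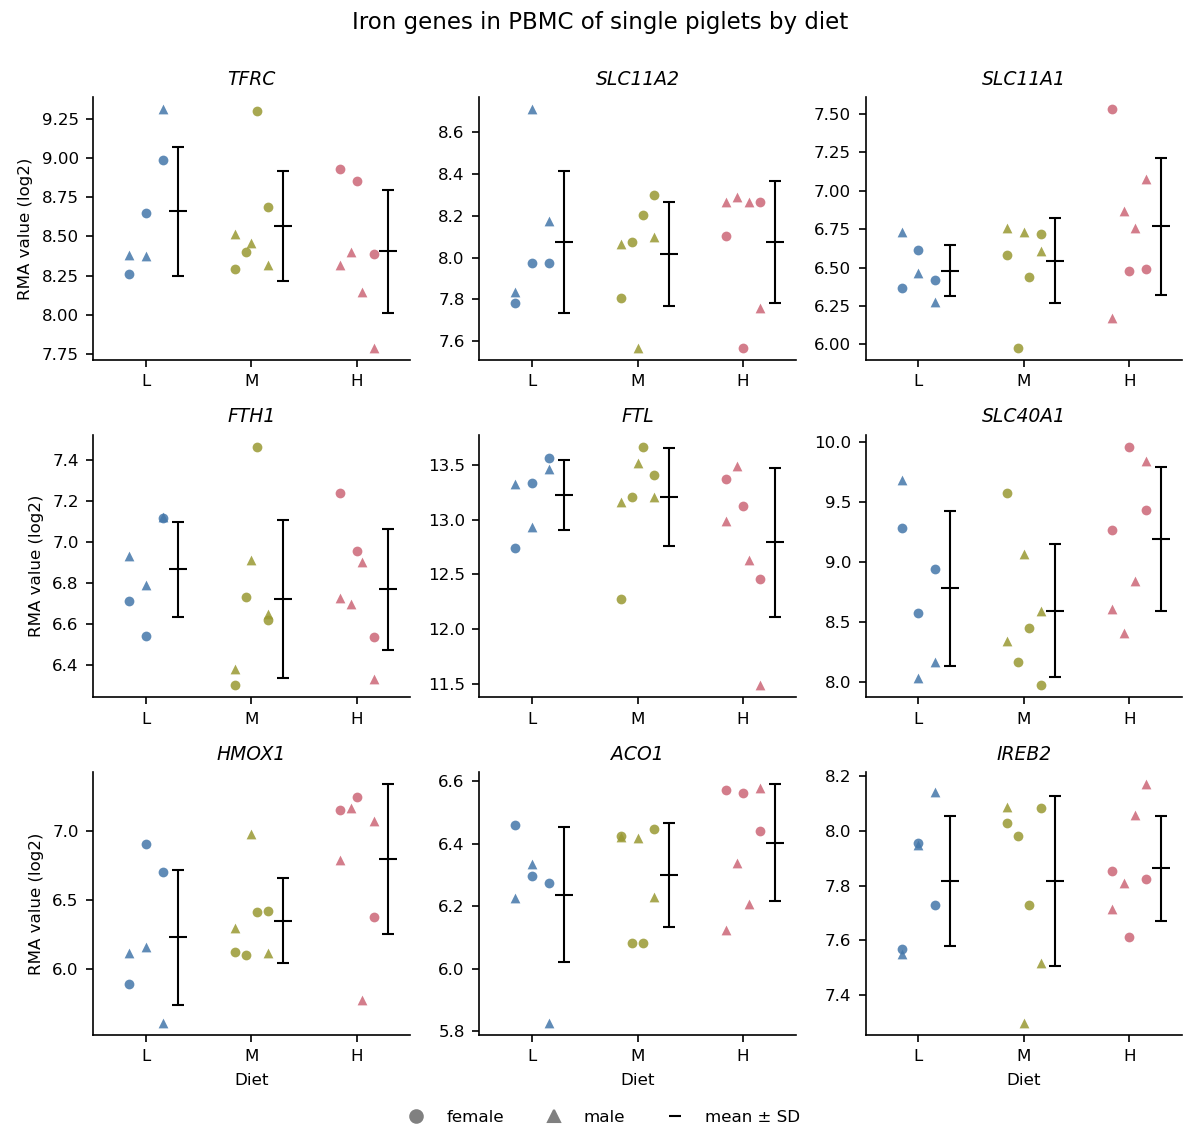
RMA values (log2, vertical axis) of the main probe set of each iron gene in single piglets by diet (L, M, H), circles for females and triangles for males, with the mean ± SD of the diet beside them. The 3 diets overlap for all 9 genes, and 4 of 7 H animals lay above every L animal for HMOX1.

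Iron uptake. TFRC encodes the transferrin receptor, the main door for iron in dividing cells. Its value was 8.26, 8.51 and 9.31 in L animals (lowest, median and highest), 8.29, 8.46 and 9.30 in M, and 7.79, 8.39 and 8.93 in H. The lowest animal of all was H 12 and the highest L 15, and the diets overlapped widely. The means were ordered L 8.66 ± 0.41 (SD, n = 6), M 8.57 ± 0.35 (SD, n = 7) and H 8.40 ± 0.39 (SD, n = 7). H minus L was -0.24 with a standard error (SE) of 0.19 and a q of 0.744 in limma, so the steps lay inside the spread between animals. Leaving out L 15 moved this difference to -0.06.

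SLC11A2 encodes DMT1, the transporter that carries iron out of the endosome after transferrin has released it. Its values were 7.78, 7.98 and 8.71 in L, 7.57, 8.08 and 8.30 in M and 7.57, 8.27 and 8.29 in H animals (lowest, median, highest). Here L held the single highest animal (L 9), and 5 of 7 H animals lay above the median of L. The diets H and L differed by -0.01 (SE 0.16), with a 95% confidence interval from -0.34 to 0.33. The second kept probe set of the gene gave -0.16 (SE 0.24), and the pair correlated at r = 0.82 over the 20 animals.

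SLC11A1 encodes NRAMP1, a metal transporter of the phagosome in monocytes, macrophages and neutrophils. It read 6.28, 6.44 and 6.73 in L, 5.98, 6.61 and 6.76 in M and 6.17, 6.76 and 7.53 in H animals. Of the H animals, 4 of 7 lay above every L animal, but 1 lay below them all. The means were ordered from L (6.48 ± 0.17, SD, n = 6) over M (6.55 ± 0.27, SD, n = 7) up to H (6.77 ± 0.45, SD, n = 7). The difference H minus L was 0.28 (SE 0.18, q = 0.649 in limma), and the second kept probe set gave 0.31 (SE 0.17). Without H 3, the highest animal, H minus L was 0.13.

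Iron storage. FTL encodes the light chain of ferritin. Its main probe set read 12.75, 13.33 and 13.56 in L, 12.28, 13.21 and 13.66 in M and 11.49, 12.98 and 13.48 in H animals. H 12 was the lowest animal of all, and 3 of 7 H animals lay below every L animal. The means were 13.23 ± 0.32 in L (SD, n = 6), 13.20 ± 0.45 in M (SD, n = 7) and 12.79 ± 0.68 in H (SD, n = 7). H minus L was -0.43 (SE 0.27, a fold of 0.742, q = 0.646 in limma), and -0.22 without H 12. H minus M was -0.41 (SE 0.26), and -0.20 without H 12.

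FTL had 9 probe sets, of which 5 were kept, and these gave different pictures. Those of means 5.61 and 5.28 gave an H minus L of -0.32 (SE 0.16, q = 0.551 in limma) and -0.42 (SE 0.16, q = 0.450), while those of means 5.23 and 5.16 gave 0.05 (SE 0.10) and -0.03 (SE 0.12). The former pair followed the main probe set over the 20 animals (r = 0.63 and 0.84), and the latter did not (r = -0.16 and 0.02). All 4 lay at means between 5.16 and 5.61, not far above the array median.

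FTH1 encodes the heavy chain of ferritin, which oxidises iron as it enters the shell. It read 6.54, 6.86 and 7.12 in L, 6.30, 6.65 and 7.47 in M and 6.33, 6.73 and 7.24 in H animals. The range of M enclosed those of both other diets. The difference H minus L was -0.09 (SE 0.17), with a 95% confidence interval from -0.45 to 0.27. Its second probe set, at a mean of 4.14, was not kept.

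Iron export and haem. SLC40A1 encodes ferroportin, the only known exporter of iron from mammalian cells. The main probe set read 8.03, 8.76 and 9.68 in L, 7.97, 8.45 and 9.58 in M and 8.40, 9.26 and 9.96 in H animals. Of the H animals, 6 of 7 lay above the median of M, and 2 of 7 above every M animal. The means were 8.78 ± 0.64 in L (SD, n = 6), 8.59 ± 0.55 in M (SD, n = 7) and 9.19 ± 0.60 in H (SD, n = 7). H minus M was 0.64 (SE 0.29, a fold of 1.56, q = 0.682 in limma), and a two-sided exact permutation test gave p = 0.0775. H minus L was 0.43 (SE 0.30, q = 0.691).

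The second kept probe set of SLC40A1 followed the first at r = 0.93 and gave 0.63 (SE 0.29) for H minus M. Without the 3 arrays of highest background (L 6, M 16 and M 19), an alternative chosen after the data had been seen, H minus M was 0.92 (SE 0.28, q = 0.112), and SLC40A1 was then called. In that fit 1064 of all 22127 kept probe sets (4.81%) were called between H and M, against 5 with all arrays. This was the only call of an iron gene in the fits made. Leaving out single animals moved H minus M between 0.51 and 0.77, and called it in none of 20 fits.

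HMOX1 encodes haem oxygenase 1, which splits haem into iron, biliverdin and carbon monoxide and is induced by haem. It read 5.61, 6.14 and 6.90 in L, 6.10, 6.30 and 6.97 in M and 5.78, 7.07 and 7.24 in H animals. Of the 7 H animals, 4 lay above every L animal and above every M animal, while H 11 lay below every M animal. The means were 6.23 ± 0.49 in L (SD, n = 6), 6.35 ± 0.31 in M (SD, n = 7) and 6.80 ± 0.54 in H (SD, n = 7). In limma H minus L was 0.58 (SE 0.23, a fold of 1.49, 95% confidence interval 0.09 to 1.06), with a q of 0.486. The two-sided exact permutation test gave p = 0.0769 for H against L and p = 0.0810 for H against M. The smallest p that this test can give is 0.00117 for comparisons with L and 0.000583 for H against M, and 27 such tests were made.

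Leaving out L 15 lowered H minus L of HMOX1 to 0.46, and leaving out H 11 raised it to 0.73. In 18 of these 20 fits the gene stayed under an unadjusted p of 0.05, and not without L 5 or without L 15. The second kept probe set gave 0.23 (SE 0.14), smaller than the first.

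Iron regulatory proteins. ACO1 encodes IRP1, an aconitase that binds iron-responsive hairpins once it has lost its iron-sulphur cluster, and IREB2 encodes IRP2, which is degraded when iron is plentiful. ACO1 read 5.83, 6.28 and 6.46 in L, 6.08, 6.42 and 6.45 in M and 6.12, 6.44 and 6.58 in H animals, with 3 of 7 H animals above every L animal. H minus L was 0.17 (SE 0.12, q = 0.674 in limma), and 0.10 without L 15, the lowest animal.

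The second kept probe set of ACO1 gave a larger H minus L of 0.79 (SE 0.34, q = 0.494). It read 4.10, 4.48 and 5.78 in L, 4.53, 4.71 and 5.77 in M and 4.66, 5.23 and 6.67 in H animals. The 3 highest H animals on it (7, 17 and 12) stood above every L and M animal. Both kept probe sets hardly moved together over the animals (r = 0.22). Whether each kept probe set of ACO1, FTL or any other of the 9 genes reads the gene it is named for was not checked here.

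IREB2 read 7.55, 7.84 and 8.14 in L, 7.30, 7.98 and 8.09 in M and 7.61, 7.83 and 8.17 in H animals. In limma H minus L was 0.05 (SE 0.15), with a 95% confidence interval from -0.25 to 0.35. The 2 other kept probe sets gave 0.01 (SE 0.19) and 0.10 (SE 0.18) and followed the main one at r = 0.89 and 0.81.

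**Figure D2:**
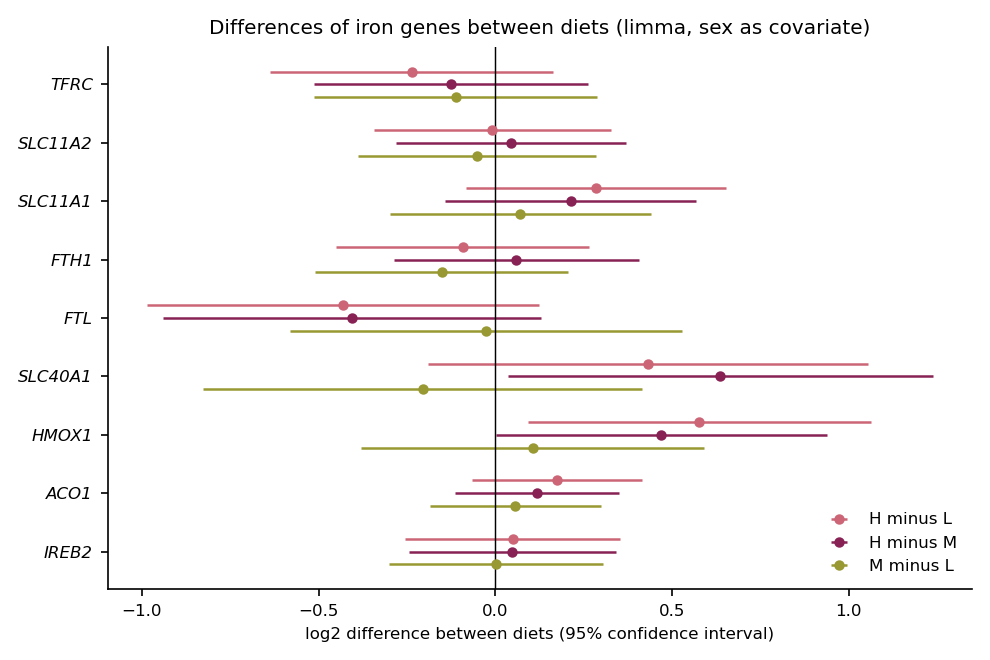
Log2 difference between diets (horizontal axis) of the main probe set of each iron gene with its 95% confidence interval, from limma with sex as covariate. HMOX1 for H minus L (0.09 to 1.06), and SLC40A1 and HMOX1 for H minus M, have intervals above 0, and all intervals of M minus L contain 0.

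**Figure D3:**
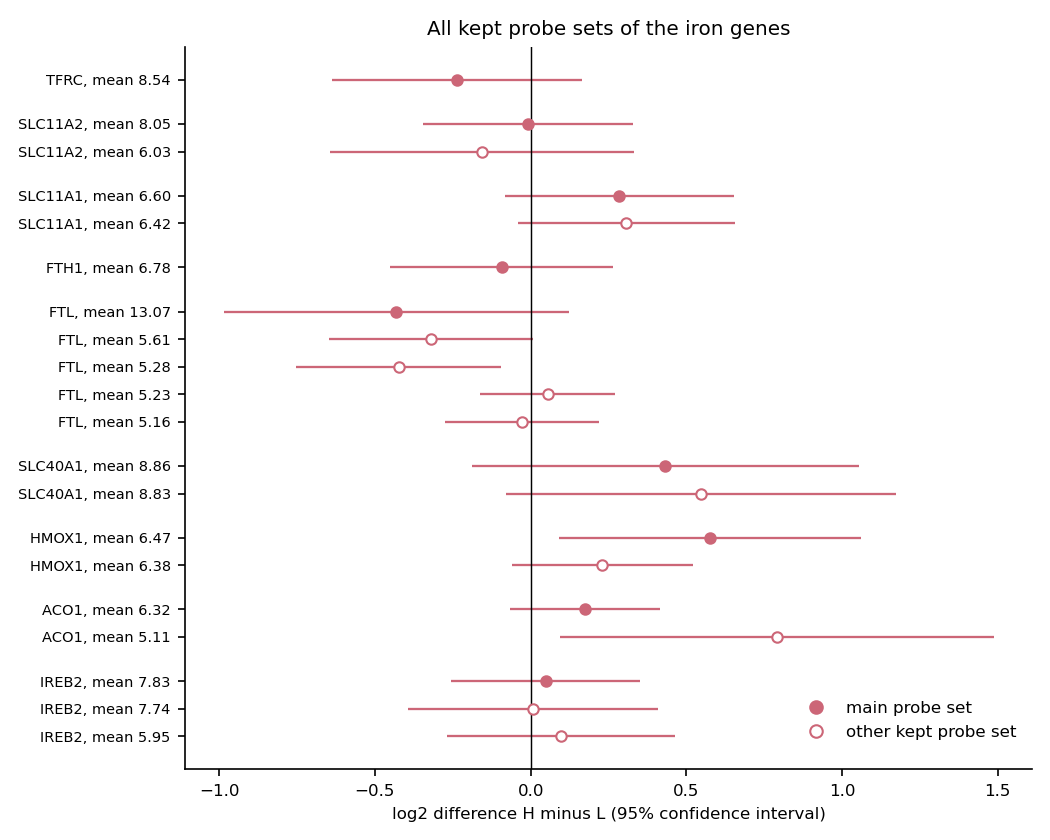
Log2 difference H minus L (horizontal axis, with 95% confidence interval) of all 20 kept probe sets, filled for the main probe set of a gene and open for the others, with the mean RMA value beside the name. The probe sets of SLC11A1, SLC40A1 and IREB2 give like values, and those of FTL and ACO1 spread.

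Between M and L all 9 log2 differences lay between -0.21 (SLC40A1, SE 0.30) and 0.11 (HMOX1, SE 0.23), each with a q of 1.0 in limma. Over the 20 kept probe sets, 3 passed an unadjusted p under 0.05 between H and L (of HMOX1, FTL and ACO1), beside 8.57% of all probe sets, and 0 of 20 between M and L, beside 2.26%. Between H and M 5 of 20 did so, beside 6.74%.

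No iron gene was called between the sexes. Male minus female ran from -0.27 (SLC40A1, SE 0.24) to 0.09 (SLC11A2, SE 0.13), with a q of 1.0 for each gene in limma, where 0.0181% of all probe sets were called. For TFRC, H minus L was 0.09 in females and -0.52 in males, and for HMOX1 0.42 in females and 0.74 in males. The interaction of diet and sex had a q of at least 0.804 for each of the 9 genes, and 0% of all probe sets were called.

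Over all 20 animals, SLC40A1 spanned 3.97-fold from the lowest to the highest animal, FTL 4.51-fold, HMOX1 3.09-fold, SLC11A1 2.93-fold and TFRC 2.87-fold, while ACO1 spanned 1.69-fold. The SD of SLC40A1 over the 20 animals was larger than that of 96.4% of all genes, that of FTL larger than 93.8%, that of HMOX1 larger than 92.5% and that of ACO1 larger than 14.6%. With the diet means taken out, the SD was 0.60 for SLC40A1, 0.51 for FTL and 0.45 for HMOX1.

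Iron genes varied together in 5 of 36 pairs at a Benjamini-Hochberg adjusted p under 0.05 (permutation test of Pearson's r over 20 animals, as for every adjusted p given below with an r). The share of pairs of other genes that would pass was not measured, so the count is no trait of the iron genes. By Spearman's rho 2 of the 36 passed, TFRC with FTL and SLC11A2 with SLC40A1. TFRC, FTH1 and FTL were correlated with each other. TFRC followed FTL at r = 0.73 (Spearman's rho 0.79, adjusted permutation p = 0.0054) and FTH1 at r = 0.74 (rho 0.57, adjusted permutation p = 0.0054), and FTH1 followed FTL at r = 0.63 (rho 0.59, adjusted permutation p = 0.0225). TFRC and FTL gave r = 0.77 within L, 0.62 within M and 0.80 within H animals. Leaving out the 2 animals whose TFRC lay farthest from the median (L 15 and M 14) left r at 0.74, with an adjusted permutation p of 0.0068.

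SLC11A2 and SLC40A1, the endosomal importer and the exporter, ran against each other at r = -0.71 (rho -0.67, adjusted permutation p = 0.0054). The relation held its sign within each diet, at r = -0.82 in L, -0.80 in M and -0.85 in H animals. SLC11A1 followed ACO1 at r = 0.61 (rho 0.51, adjusted permutation p = 0.0379). Taking out the diet means left 4 of the 5 pairs under 0.05, without SLC11A1 and ACO1. Leaving out the 2 animals farthest from the median of the first-named gene of each pair, only TFRC and FTL stayed under 0.05 after adjustment. A choice by the other gene of a pair was not tried. The r of the other 4 pairs was then 0.59 for TFRC and FTH1, -0.60 for SLC11A2 and SLC40A1, 0.51 for SLC11A1 and ACO1, and 0.61 for FTH1 and FTL.

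Markers of several cell types were read on the same arrays, and the ranges of their means overlapped between the diets. The mean of the 5 monocyte markers was 8.05 to 9.20 in L, 8.34 to 9.50 in M and 8.92 to 10.09 in H animals, and 5 of 5 had a higher H than L mean (median log2 difference 0.75). The mean of the 7 neutrophil markers was 7.76 to 9.08 in L and 7.99 to 9.21 in H animals (6 of 7 above, median 0.43). The 5 T cell markers had a mean of 10.07 in L (lowest animal 9.75) and 9.66 in H (lowest animal 8.83; 0 of 5 above, median -0.41), and the 8 markers of dividing cells from 6.32 to 7.32 in L and from 5.79 to 6.65 in H (0 of 8 above, median -0.38). The 7 erythroid markers ran from 9.56 to 11.12 in L, 9.53 to 11.14 in M and 8.52 to 10.77 in H animals (0 of 7 above, median -0.55). For B cell markers 0 of 4 lay above, with a median of -0.36. For NK and cytotoxic markers it was 1 of 4 (median -0.10), and for platelet markers 4 of 5 (median 0.19). Of these markers only BIRC5, of dividing cells, was called, in H against M. In RNA of a cell mixture, fewer cells of a type and less RNA per cell cannot be told apart.

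Each iron gene was set against 9 marker scores, each the mean of standardised marker values. The macrophage score rested on only 2 kept markers (CD163 and C1QA) of the 5 on the array. The mean of CD163 was higher in H than in L, and that of C1QA was not. Over the 20 animals, 15 of 81 correlations had an adjusted permutation p under 0.05, 8 positive and 7 negative. The share of other genes that would pass with these scores was not measured. FTL followed the erythroid score at r = 0.90 (rho 0.80, adjusted permutation p = 0.00081), with r = 0.79 in L, 0.97 in M and 0.88 in H animals. H 12, the animal of lowest FTL, also had the lowest erythroid score (-2.37), and M 1, the lowest FTL of the M diet, the next (-1.21). Without these 2, r was 0.70, with an adjusted permutation p of 0.0567.

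HMOX1 followed the monocyte score at r = 0.76 (rho 0.72, adjusted permutation p = 0.0020), the neutrophil score at 0.67 (rho 0.69, adjusted permutation p = 0.0221) and the macrophage score at 0.63 (rho 0.51, adjusted permutation p = 0.0273), and ran against the T cell score at -0.57 (rho -0.45, adjusted permutation p = 0.0437). L 15 had both the lowest HMOX1 and the lowest monocyte score (-1.64), and H 12, at a HMOX1 of 7.07, the highest (1.56). Without L 15 and H 12, r with the monocyte score was 0.69 (adjusted permutation p = 0.0567). ACO1 and SLC11A1 went with the monocyte score too, ACO1 at r = 0.73 (rho 0.60, adjusted permutation p = 0.0070) and SLC11A1 at 0.66 (rho 0.66, adjusted permutation p = 0.0221).

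SLC40A1 ran against the T cell score at r = -0.68 (rho -0.66, adjusted permutation p = 0.0107) and SLC11A2 with it at 0.63 (rho 0.43, adjusted permutation p = 0.0277). H 17 had the highest SLC40A1 (9.96), the lowest SLC11A2 (7.57) and the lowest T cell score (-2.51). SLC40A1 also ran against the erythroid score (r = -0.61) and that of dividing cells (r = -0.61), with adjusted permutation p = 0.0221 and 0.0324. TFRC ran against the platelet score at -0.66 (rho -0.74, adjusted permutation p = 0.0221). Its r with the erythroid score was 0.55 (rho 0.55, adjusted permutation p = 0.0658). The r of TFRC with the score of dividing cells was 0.12, but 0.88 within L, -0.48 within M and -0.49 within H animals. IREB2 ran with the score of dividing cells at 0.57 and against those of neutrophils (-0.59) and macrophages (-0.58), each with an adjusted permutation p of at most 0.0437.

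With the diet means taken out, 12 correlations had an adjusted p under 0.05, 11 of them among the 15. Without the 2 animals of most extreme score, 0 of 81 did, while the 15 kept their sign, the negative ones between -0.70 and -0.35 and the positive ones between 0.37 and 0.70. By Spearman's rho, 6 of 81 passed.

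**Figure D4:**
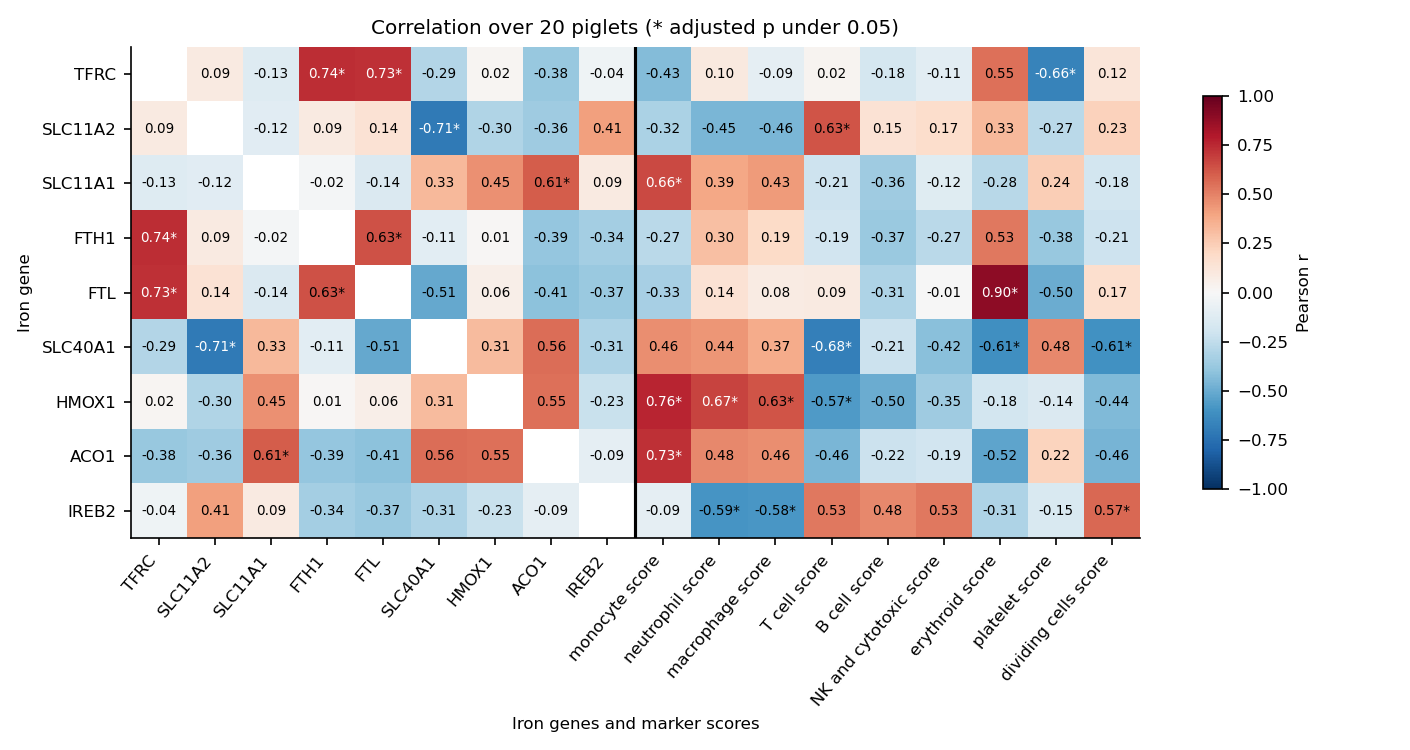
Pearson's r over 20 piglets between iron genes (rows) and iron genes or marker scores (columns, separated by the black line), red for positive and blue for negative, with a star at an adjusted permutation p under 0.05. FTL and the erythroid score hold the highest r (0.90), and HMOX1, ACO1 and SLC11A1 are starred with the monocyte score.

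**Figure D5:**
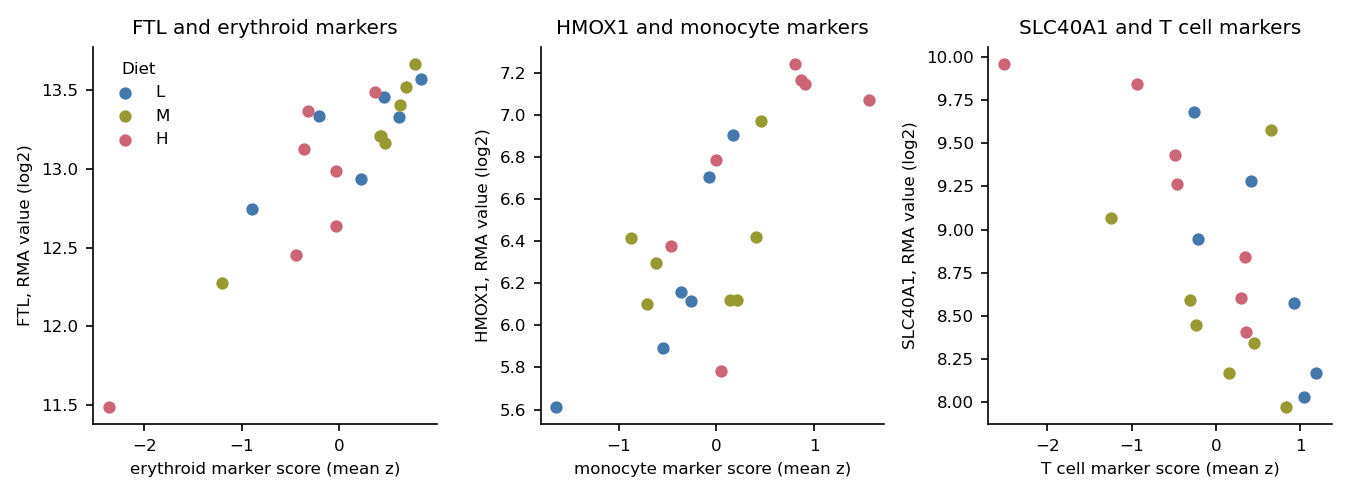
RMA value (log2, vertical axes) of FTL, HMOX1 and SLC40A1 against the erythroid, monocyte and T cell marker score (mean z, horizontal axes), a point for each piglet coloured by diet. The lowest FTL is that of the animal with the lowest erythroid score (-2.37), and the highest SLC40A1 (9.96) that of the animal with the lowest T cell score (-2.51).

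Some diet differences were smaller with marker scores in the fit. With the monocyte and neutrophil scores as covariates, H minus L of HMOX1 was 0.10 (SE 0.20), of SLC40A1 0.10 (SE 0.34), of SLC11A1 -0.01 and of ACO1 -0.02. With the erythroid score as covariate, H minus L of FTL was -0.03 and that of TFRC -0.04, while that of HMOX1 was 0.60 (SE 0.25). With the score of dividing cells, H minus L of IREB2 was 0.30 (SE 0.12, q = 0.319 in limma), against 0.05 without it. That of HMOX1 was then 0.46 (SE 0.27) and that of SLC40A1 0.08 (SE 0.31). H minus M of SLC40A1 was 0.45 (SE 0.30) with the monocyte and neutrophil scores, 0.31 (SE 0.29) with the erythroid score and 0.28 (SE 0.30) with the score of dividing cells. The mean scores were not equal in the 3 diets, so that diet and cell makeup cannot be told apart by such a fit.

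The genes whose pattern over the 20 animals was most like that of an iron gene were searched among 9345 others. For HMOX1 these were TNFSF13B, which encodes the B cell survival factor BAFF (r = 0.88), and TLR8, a receptor for single-stranded RNA (r = 0.87). For ACO1 they were WBP11 (r = 0.85) and VCAN (r = 0.84), the latter 1 of the monocyte markers. For FTL they were ATP5E, a subunit of ATP synthase (r = 0.94), and GABARAPL2, an autophagy protein (r = 0.94). For IREB2 they were DHX29 and DCAF13 (both r = 0.95), and for TFRC LIN9 and KIAA0895 (both r = 0.89). SLC40A1 was most like F5, coagulation factor V (r = 0.85), and INPP5A (r = 0.84), SLC11A2 most like FAM171B (r = 0.75) and TC2N (r = 0.74), SLC11A1 most like CYSLTR2 (r = 0.78) and ACVR1B (r = 0.76), and FTH1 most like COBLL1 (r = 0.84) and CENPP (r = 0.82). Being the highest of many values, these are descriptions without a test.

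The wider iron machinery held 74 listed genes, of which 63 were on the array and 56 were kept. None of the 56 was called in any comparison, 25 lay above 0 in H minus L (45.1% of all genes) and 31 below, and the median was -0.03. At an unadjusted p under 0.05, 8 of 56 were higher in H than in L (4.96% of all genes) and 3 lower (4.21%). Between H and M, 6 were higher (3.98%) and 9 lower (3.2%).

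Among other uptake and reduction genes, 4 of 8 were higher in H than in L at an unadjusted p under 0.05 (4.96% of all genes). LRP1, a receptor that also takes up haem bound to haemopexin, gave 0.64 (SE 0.16, q = 0.426 in limma), and CYBRD1, a ferric reductase, 0.61 (SE 0.17, q = 0.426). SLC39A8, a metal importer, and STEAP4, a metal reductase, were named after their values had been seen and gave 0.84 (SE 0.28) and 1.06 (SE 0.37). In haem and haemoglobin handling 2 of 9 were higher at that level (4.96% of all genes). They were FLVCR2 at 0.65 (SE 0.22, q = 0.434) and CD163, the scavenger receptor for haemoglobin, at 1.05 (SE 0.45, q = 0.496). CD163 is 1 of the 2 macrophage markers used above.

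Of 7 enzymes of haem synthesis, 1 lay above 0 in H minus L (45.1% of all genes) and 6 below, with a median of -0.33. The 2 of smallest p were UROD at -0.33 (SE 0.16, q = 0.535) and FECH, which inserts the iron, at -0.80 (SE 0.43, q = 0.597). In H minus M the median was -0.58, and 4 of 7 were lower at an unadjusted p under 0.05 (3.2% of all genes). Among them were FECH at -1.37 (q = 0.558) and UROD at -0.58 (q = 0.489). Of 11 mitochondrial iron and iron-sulphur genes, 3 lay above 0 in H minus L (45.1% of all genes) and 8 below, with GLRX5 at -0.50 (SE 0.23, q = 0.529) and ISCA1 at -0.65 (SE 0.31, q = 0.537). The 7 erythroid markers had a median of -0.94 in H minus M, where none was called and 3 passed an unadjusted p under 0.05, and their part in these values was not tested.

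BACH1, the haem-sensing repressor of HMOX1, gave an H minus L of 0.68 (SE 0.20, q = 0.426 in limma), and TXNRD1, a target of NRF2, 0.28 (SE 0.13, q = 0.530). NCOA4, which delivers ferritin to the lysosome, gave -0.41 (SE 0.35) for H minus L, and PCBP1, an iron chaperone, -0.11 (SE 0.15). FBXL5, which marks IRP2 for degradation, gave 0.29 (SE 0.17), and CDC14A, whose message can carry an iron-responsive hairpin, -0.20 (SE 0.13). In the hepcidin axis TMPRSS6 gave 0.18 (SE 0.20) and CP, the ferroxidase ceruloplasmin, -0.08 (SE 0.11).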

How the data were processed

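RNA of PBMC from 20 piglets was hybridised to snowball arrays (Affymetrix, pig, read in 1 colour). Per the labels the scans were read with GCOS 1.1.1. The authors normalised the probe intensities by RMA and deposited log2 values, which hide a shift common to all transcripts. According to the methods 1 array was left out in quality control. Their presence filter was replaced by values above the array median on at least 16 of 20 arrays, which kept 22127 probe sets. Of the 47845, 123 are controls and 26426 carry 1 gene name, 446 of them updated through synonyms. Diets were fitted together in limma 3.58.1 (R 4.3.3) with sex as covariate. Litter, which the methods name, is not in the labels. On simulated data, 177 of 200 probe sets changed by 1 and 199 of 200 changed by 2 (log2) were recovered between H and L, with 43 and 42 false calls, and 5 were called with no change. The simulated noise was normal and independent between probe sets, which noise on real arrays need not be. No change smaller than 1 was planted, while the largest difference of an iron gene was 0.64. The recovery of such differences was therefore not measured. Permutation tests used scipy 1.17.1 (100000 resamples for correlations), and took animals as exchangeable although some were littermates. The members, gene lists and alternatives were chosen with earlier results of these data known. Named genes are the 9 members, the 2 of smallest p between H and L in each wider list, and the 2 most alike each member. SLC39A8, STEAP4 and BIRC5 were named after their values had been seen. The number of arrays limits the precision.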

Additional observations from a re-analysis of the deposited data

Results flagged for a closer look

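In 27 groups (9 genes by 3 diets) the animal at either end was set against the nearest other animal of its diet, and 5 lay farther off than Dixon's 95% limit, which chance passes in about 1 of 20 groups. These were M 14 for TFRC (9.30, the next animal at 8.69), M 8 for SLC11A1 (5.98, next 6.44), M 1 for FTL (12.28, next 13.16), M 16 for HMOX1 (6.97, next 6.42) and L 15 for ACO1 (5.83, next 6.23). M 16 was among the 3 arrays of highest background. M 1 had an erythroid score of -1.21, and L 15 a monocyte score of -1.64.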

How the results depend on the processing

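No iron gene was called under any alternative planned at first, nor when any 1 of the 20 animals was left out. That plan was itself made with earlier results of these data known. Added after the data had been seen, leaving out the 3 arrays of highest background gave 1 call in H against M (SLC40A1), where 1064 of all 22127 probe sets (4.81%) were called against 5 in the report. The count past an unadjusted p under 0.05 between H and L, 1 in the report, was 2 with array weights, 2 without those 3 arrays, 2 with the mean of the kept probe sets, 3 with any kept probe set and 0 with the monocyte and neutrophil scores as covariates, and it ran from 0 (without L 5 or L 15) to 2 (without H 4 or L 6) over single animals. With the score of dividing cells as covariate, the gene past that level was IREB2 in place of HMOX1. Without the 2 animals farthest from the median of the first-named gene or of the score, 1 instead of 5 pairs of iron genes and 0 instead of 15 relations with scores passed.

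No paired analysis was possible because the animal numbers in the labels are shared by no 2 animals and litter is not given.

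Of the log2 differences of single genes under other settings, 396 kept their sign and side, 1 was newly called and 35 changed sign, none of them called. With the monocyte and neutrophil scores, H minus L was -0.023 for ACO1, 0.042 for FTH1, -0.013 for SLC11A1 and 0.18 for SLC11A2, M minus L -0.0076 for ACO1, -0.078 for HMOX1, -0.024 for SLC11A1 and 0.027 for SLC11A2, and H minus M -0.016 for ACO1 and 0.055 for TFRC. With the erythroid score, H minus L was 0.082 for FTH1, -0.016 for IREB2 and 0.087 for SLC11A2, and H minus M 0.10 for FTL, -0.034 for IREB2 and 0.12 for TFRC. With the score of dividing cells, FTH1 was at -0.038 in H minus M, IREB2 at -0.0036 in M minus L and SLC11A2 at 0.087 in H minus L. Without the 3 arrays, HMOX1 was at -0.042 and SLC11A2 at 0.015 in M minus L, IREB2 at -0.040 in H minus L, and IREB2 at -0.19 and SLC11A2 at -0.11 in H minus M. Array weights gave 0.031 for FTL in M minus L and -0.074 for IREB2 in H minus M. For IREB2, centring gave -0.0040 and the 2 groups alone -0.0057 in M minus L, and the background covariate -0.021 in H minus M. FTL probe set 2 by mean gave 0.0067 in M minus L, and probe set 4 0.055, 0.013 and 0.042 in H minus L, M minus L and H minus M. IREB2 probe sets 2 and 3 by mean gave -0.058 in M minus L and -0.0026 in H minus M. The cause was not tested.

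Leaving out single animals, 504 differences kept their sign and 36 changed it, none of them called. Their ranges in M minus L were -0.016 to 0.10 for ACO1, -0.14 to 0.13 for FTL, -0.032 to 0.24 for HMOX1, -0.055 to 0.10 for IREB2, -0.11 to 0.067 for SLC11A2, -0.35 to 0.0061 for SLC40A1 and -0.23 to 0.047 for TFRC. In H minus L they were -0.0089 to 0.12 for IREB2 and -0.072 to 0.12 for SLC11A2, and in H minus M -0.026 to 0.17 for FTH1, -0.056 to 0.10 for IREB2 and -0.057 to 0.14 for SLC11A2.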
